A study of Rattus norvegicus with 12 samples.

Results

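The genes that encode collagen chains were followed in primary ventricular cardiomyocytes of newborn rats, the beating heart muscle cells isolated from neonatal hearts, which such cultures share with some other cardiac cells. Members were the rows of the count table whose symbol is Col, a number, the letter a and a number, with at least 10 counts in at least 3 libraries. This rule gave 36 collagen genes among 32883 genes in the table, of which 14193 met the same minimum. The cells had received an adenovirus 2 days earlier, and 4 groups of 3 libraries were compared. All 12 libraries, controls included, come from cells that carried an adenovirus. LacZ, a bacterial gene, was the control cargo. The others carried human KAT6A, a histone acetyltransferase, as the wild-type form (WT), as the acetylation-resistant mutant K815R or as the acetylation-mimetic mutant K815Q. No strain, sex, pooling of pups, viral dose or promoter is given in the labels. They also do not say whether replicates came from separate cultures, so p-values measure only the spread between these libraries, which may be technical.

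Collagens are secreted proteins in which chains wind into a triple helix, and each collagen type is built from its own set of chains. Fibrillar collagens form the cables of the interstitial matrix, with type I and type III as the main ones in the heart, and collagen IV forms the network of the basement membrane around each muscle cell and vessel. In the heart, interstitial fibroblasts make most type I and type III collagen, while muscle and endothelial cells also contribute collagen IV. New chains are hydroxylated and folded in the endoplasmic reticulum, exported, trimmed outside the cell and crosslinked by lysyl oxidases.

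Reads assigned to genes numbered 19102048 to 25451686 per library, and 18037 to 18338 genes had at least 1 count. Rat Kat6a is the row that can show the delivered gene, and whether reads of human KAT6A align to it was not tested. It stood at 45.2 to 53.6 CPM (counts scaled to library size) in LacZ, 82.0 to 106 in WT and 101 to 122 in K815R. In the K815Q samples the level was 43.4 to 50.0 CPM, so the rise that their label calls for was not measured and they are named below as the libraries labelled K815Q, or K815Q-labelled. Cardiomyocyte markers were abundant, with a summed level over 11 genes of 55300 to 61400 CPM over the 12 libraries. Genes listed as markers of other cells had counts as well. Those listed for smooth muscle and pericytes summed to 7150 to 7560 CPM in LacZ, 7020 to 7230 in WT and 7480 to 7880 in K815R. In the K815Q-labelled libraries they summed to 6980 to 7260. Macrophage markers summed to 72.4 to 94.7 CPM in LacZ and 93.9 to 108 in the 9 others. Over 13 fibroblast markers other than Col1a2, of which Mfap4 was near 0, the sum was 2610 to 2730 CPM in LacZ, 2660 to 2790 in WT, 2710 to 2900 in K815R and 2760 to 2910 in the K815Q-labelled libraries. Of the endothelial markers, Cldn5 had no count in any library, and the sum over the list was 190 to 273 CPM. In such a bulk sample, fewer cells of a type and less RNA per cell cannot be told apart. The sums are led by their most abundant genes, such as Vim in the fibroblast list, with a mean of 1499 CPM in LacZ. A listed gene need not be limited to 1 cell type, so the sums do not show which cells were present.

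Collagen transcripts made up a narrow and similar share of the RNA in all groups. The 36 genes together took 1.98% to 2.10% of gene counts in the LacZ libraries, 1.84% to 2.06% in WT, 1.85% to 1.94% in K815R and 1.94% to 2.08% in the K815Q-labelled libraries. Col1a1, Col3a1, Col4a1 and Col4a2 held 81.1% to 82.3% of all collagen counts in each library. CPM here are scaled by TMM (a correction for library composition) and not divided by transcript length, so each gene is compared between libraries and not with another gene. There were 13 members with a mean of 100 CPM or more, from Col14a1 at 140 to Col1a1 at 7813. The remaining 23 reached down to 0.383 CPM for Col28a1. The table holds 7 more collagen symbols under the minimum: Col23a1, Col10a1, Col25a1, Col9a1, Col6a4, Col19a1 and Col6a5. Just outside the rule lay Col6a5, with 1 library at the minimum and 52 counts in all. Just inside lay Col28a1, with 4 such libraries and 97 counts, and Col22a1, with 8 and 133.

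**Figure D1:**
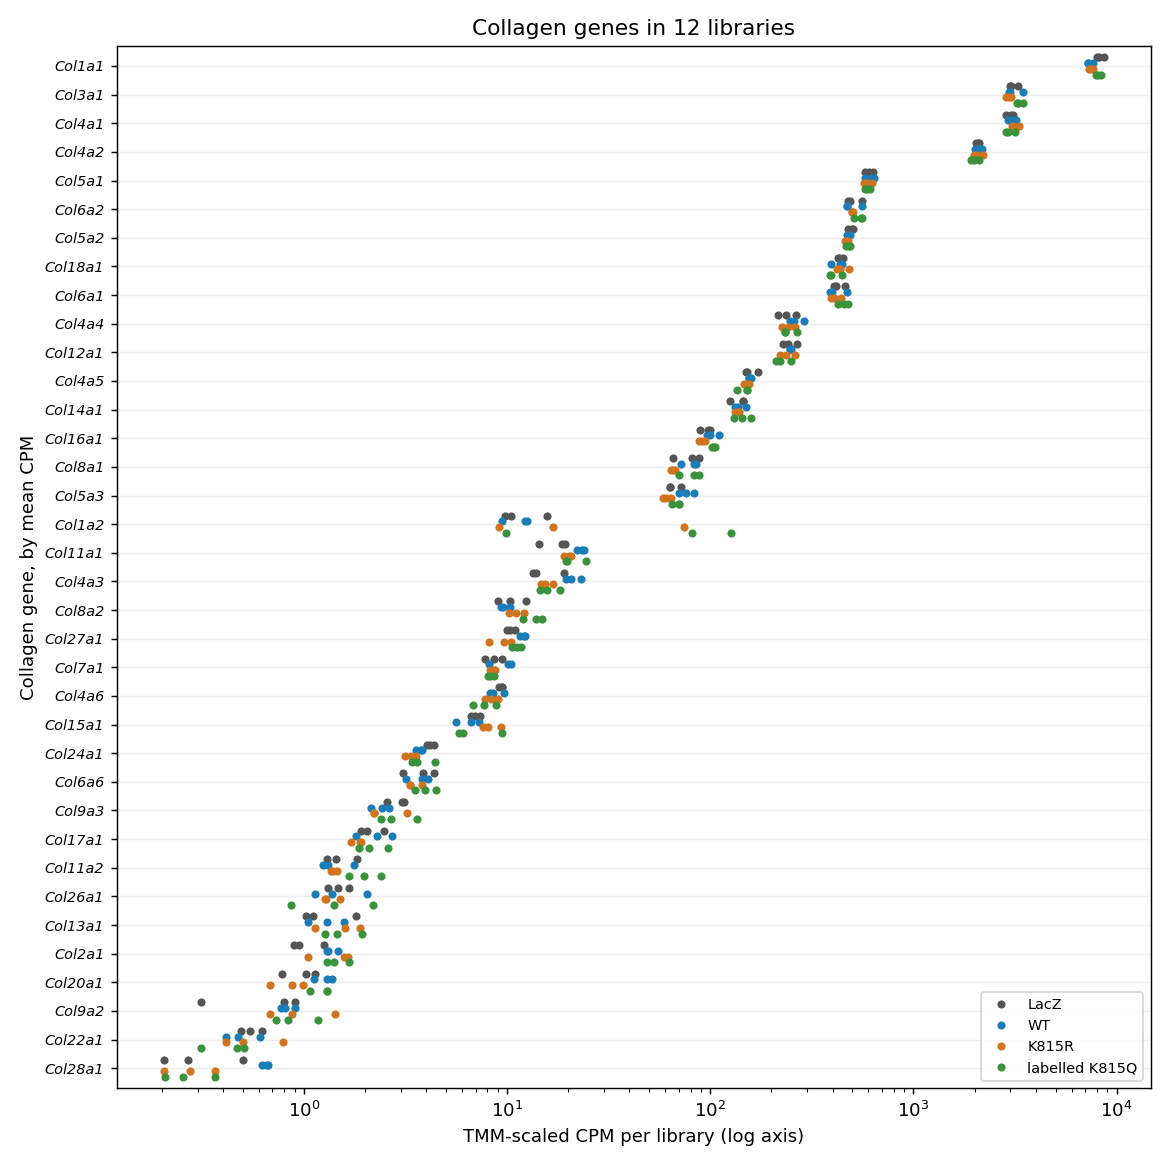
Each row is 1 of the 36 collagen genes, ordered by mean level, and each point is 1 of 12 libraries, coloured by group, on a log axis of TMM-scaled CPM. The points of nearly all abundant genes lie close together, while those of Col1a2 run from 9.14 to 126 CPM, with 3 libraries far to the right of the other 9.

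All 36 members passed the filter on low counts and were tested among 14063 genes. Calls required an adjusted p under 0.05. WT and LacZ differed in 2 of the 36 collagens, Col11a1 and Col4a3, both higher in WT. Of all genes tested, 5.34% were called there, 1.95% higher and 3.39% lower. K815R and LacZ differed in 0 of 36, against 2.47% of all genes, 0.74% higher and 1.74% lower. In that comparison 3 of 36 members and 1938 of 14063 genes had an unadjusted p under 0.05, and DESeq2 called 1 member, Col1a1. The K815Q-labelled libraries differed from LacZ in 1 member, Col8a2, which was higher, against 7.85% of all genes, 2.87% higher and 4.98% lower. K815R differed from WT in 1 member, Col5a3, which was lower, against 2.2% of all genes, 1.32% higher and 0.882% lower. The K815Q-labelled libraries differed from WT in 1 member, again Col8a2 and again higher, against 1.07% of all genes, 0.718% higher and 0.356% lower. K815R and the K815Q-labelled libraries differed in 0 of 36 by edgeR and in 0 by DESeq2, where 0.363% of all genes were called, 0.213% higher and 0.149% lower. At an unadjusted p under 0.05 there were 9 of the 36 members and 1598 of the 14063 genes. Tested across the 4 groups at once, the members called were Col5a3 and Col8a2, 2 of 36, against 8.13% of all genes. Beside these shares, counts of 0 to 2 among 36 are no result about the collagens as a group. Without the 3 libraries with more than 1000 Col1a2 counts, which are described below, a single call was left over the 7 tests, Col11a1 in WT.

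The median log2 fold change of the 36 members stayed near that of all genes tested. It was 0.02 in WT against LacZ (0.01 over all genes), -0.04 in K815R against LacZ (0.00 over all genes) and 0.04 in the K815Q-labelled libraries (0.01 over all genes). It was -0.05 in K815R against WT and -0.01 in the K815Q-labelled libraries against WT, each beside 0.00 over all genes. The furthest from all genes was K815R against the K815Q-labelled libraries, at -0.09, with 24 of the 36 members lower. All 11 fibrillar members were lower in that comparison, with a median of -0.16, and none was called. Of these 11, 5 had an unadjusted p under 0.05, as did 1598 of all 14063 genes. The 13 members of at least 100 CPM bound any change most tightly, since none was called and their 95% intervals against LacZ ran from -0.28 to 0.32 in WT, -0.26 to 0.20 in K815R and -0.26 to 0.23 in the K815Q-labelled libraries, on the log2 scale. WT and LacZ libraries enter several of these comparisons, which are therefore not independent of each other.

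**Figure D2:**
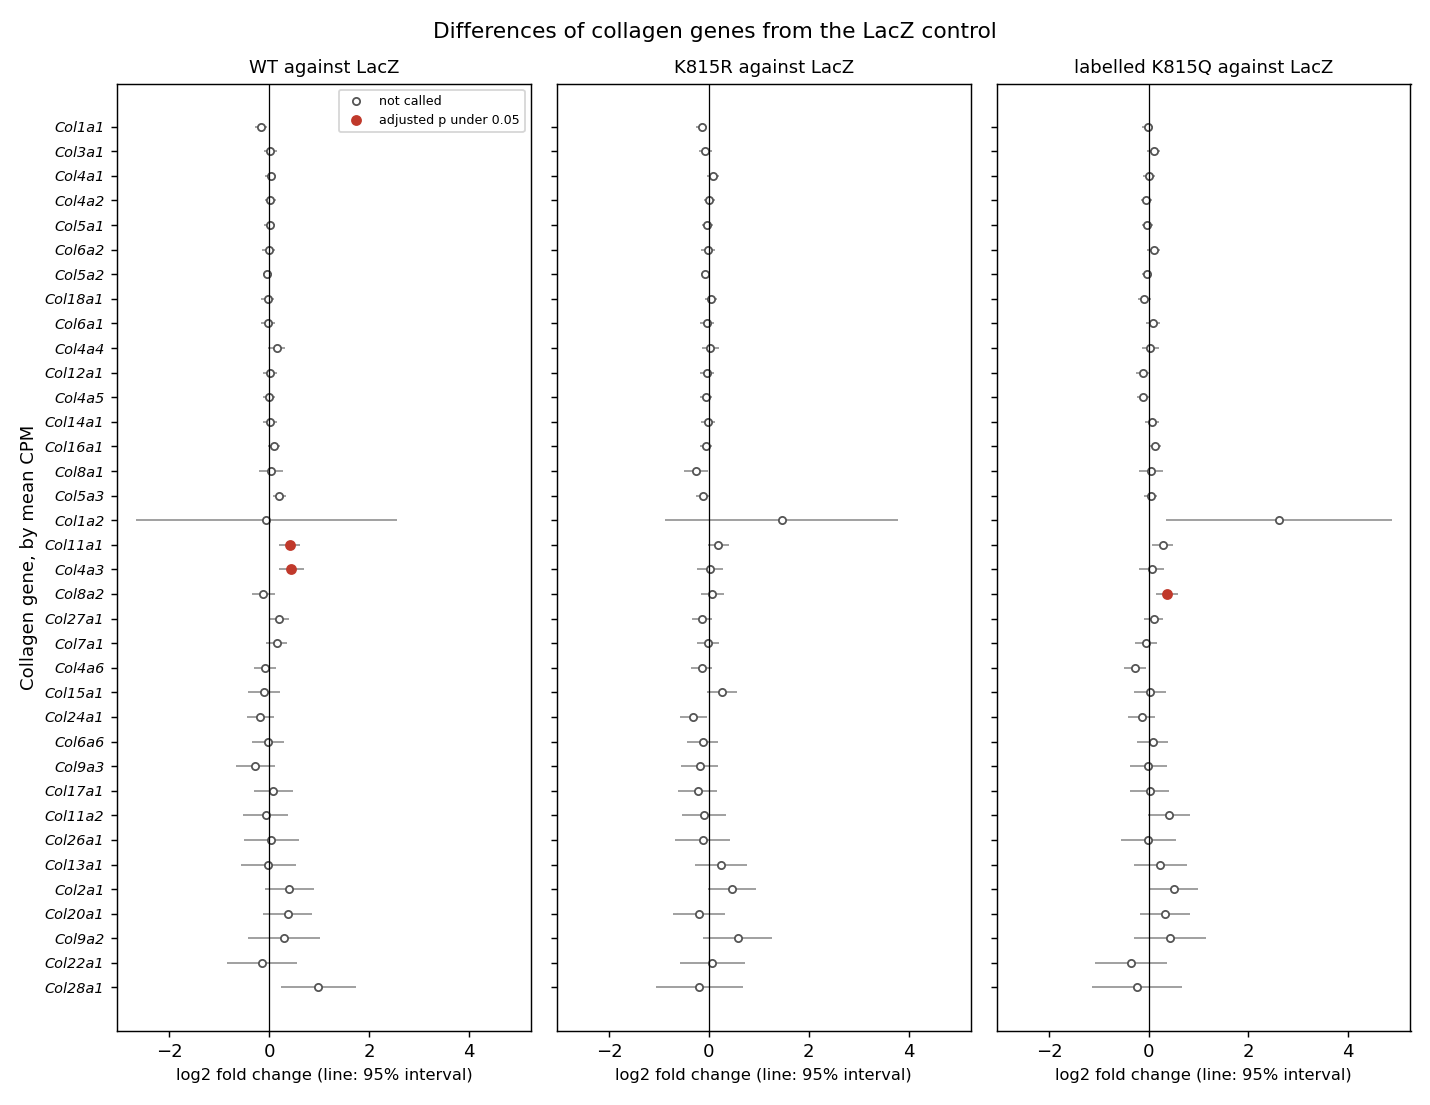
Log2 fold change against LacZ (x axis, line: 95% interval) of each collagen gene, ordered by mean level, in WT, K815R and the K815Q-labelled libraries; filled red points have an adjusted p under 0.05. Intervals are short for the abundant genes at the top and lie close to 0. Those of Col1a1 lie wholly below 0 in WT (-0.28 to -0.05) and K815R (-0.26 to -0.03). Col1a2 has the widest ones, from -2.67 to 2.56 in WT.

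The groups also differed in genes that are not collagens. Against LacZ, 25 interferon-stimulated genes were all called lower in WT and the K815Q-labelled libraries, and 23 of them in K815R, with median log2 fold changes of -2.11, -2.49 and -1.79. Of 12 fibroblast markers tested, 2 were called higher in WT (1.95% of all genes), 1 in K815R (0.74%) and 4 in the K815Q-labelled libraries (2.87%). Another 1, Pdgfra, was called lower in WT (3.39% of all genes). The part of these differences in the collagen values was not tested.

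Type I collagen, the main fibre of scar, tendon and myocardial interstitium, is assembled from Col1a1 and Col1a2 chains. Col1a1 (ENSRNOG00000003897) stood at 8614, 8147 and 8008 CPM with LacZ, 7264, 7659 and 7213 with WT, 7655, 7441 and 7345 with K815R, and 8064, 8413 and 7935 in the K815Q-labelled libraries. Every WT and K815R library lay below every LacZ library, by a small margin. Relative to LacZ, WT stood at a log2 fold change of -0.16 (SE 0.0548) and K815R at -0.14 (SE 0.0548), and neither was called (edgeR, Benjamini-Hochberg adjusted p 0.0908 and 0.212). In the K815Q-labelled libraries the difference was -0.02, with values that overlapped those of LacZ.

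Col1a2 (ENSRNOG00000011292), the second chain, did not follow Col1a1. It stood at 9.72, 15.7 and 10.4 CPM with LacZ, 12.3, 9.46 and 12.5 with WT, 74.3, 9.14 and 16.9 with K815R, and 126, 81.1 and 9.85 in the K815Q-labelled libraries. The high libraries were K815R replicate 1 and replicates 1 and 2 of those labelled K815Q, and every other library stayed under 17 CPM. In raw counts these 3 libraries held 1442, 2430 and 1596, and the other 9 held 183 to 372. Replicates of the same group therefore stood on both sides of the gap, and the groups overlapped in every comparison. The log2 fold change against LacZ was 2.61 (SE 0.986) in the K815Q-labelled libraries, 1.46 (SE 1.02) in K815R and -0.06 (SE 1.14) in WT, and none was called (edgeR, Benjamini-Hochberg adjusted p 0.15, 0.608 and 0.989). DESeq2 did call the first of these (Benjamini-Hochberg adjusted p 0.0477). Without K815R replicate 1 the value for K815R was 0.12, and without replicate 1 of those labelled K815Q the value for that group was 1.94. Against WT, the K815Q-labelled libraries were at 2.66 and K815R at 1.51, also not called. Whether the Col1a2 row captures all reads of its transcripts was not tested, and the strand setting of the counting is not given. Its low counts therefore do not show that the gene was nearly silent.

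The ratio of Col1a1 to Col1a2 counts shows the same gap. It was 435 to 886 in the 9 libraries with low Col1a2, and 103, 63.8 and 104 in K815R replicate 1 and replicates 1 and 2 of those labelled K815Q. No other pair of chains with abundant counts moved in this way. Col4a1 to Col4a2 ran only from 1.40 to 1.54 over the 12 libraries, Col5a1 to Col5a2 from 1.22 to 1.33, and Col6a2 to Col6a1 from 1.15 to 1.26. The SD of log2 CPM over all 12 libraries was 1.39 for Col1a2, rank 28 among the 14063 genes tested, and 0.08 for Col1a1. The 3 libraries had 19628703 to 20076614 gene counts, within the range of the others. Their share of reads that aligned to more than 1 place was 25.9% to 26.9%, against 25.6% to 26.9% in the other 9. Reads in no feature made up 12.4% to 12.9%, against 11.7% to 12.9% in the other 9. In the remaining K815R and K815Q-labelled libraries that share was 11.8% to 12.1%. The TMM factors of the 3 libraries were 0.968, 0.981 and 0.990, against 0.989 to 1.02 in the other 9. Whether these measures bear on Col1a2 was not tested.

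**Figure D3:**
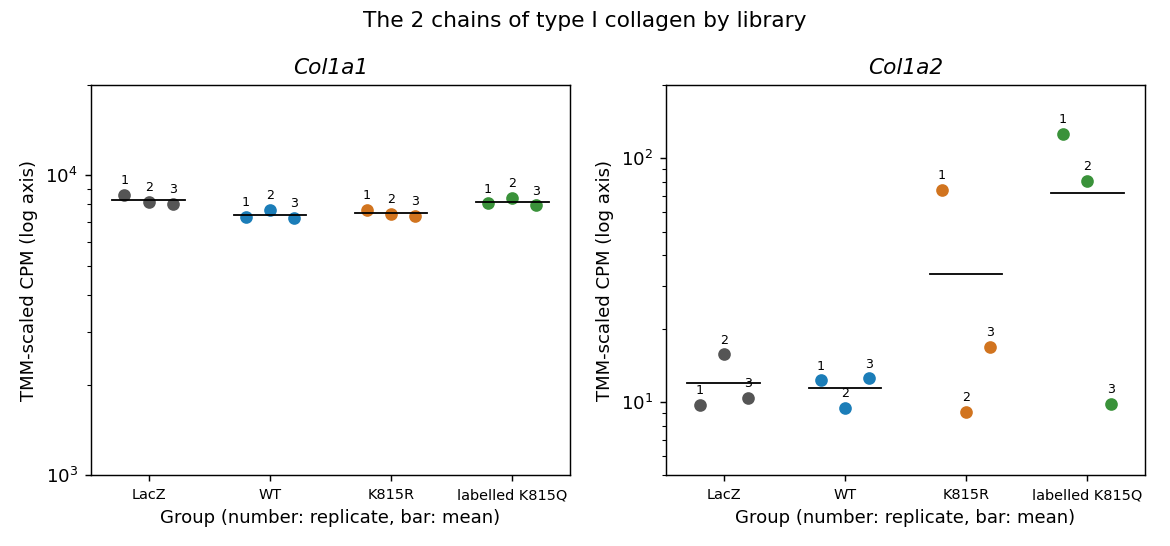
TMM-scaled CPM (log axes) of Col1a1 and Col1a2 in each library, with its replicate number beside the point and a bar at the group mean. The Col1a1 libraries lie between 7213 and 8614, whereas Col1a2 is at 74.3, 126 and 81.1 in 3 libraries and between 9.14 and 16.9 in the rest.

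Other genes were ranked by how closely they matched the levels of Col1a2. Likeness was measured as the root mean square difference of log2 CPM from Col1a2 over 12 libraries, after centring each gene on its own mean, among 142 genes with a spread large enough to compare. The closest were RF01233 at 0.92, LOC100362339 at 1.00, Atp5pb at 1.06, Cd99l2 at 1.19 and Egr1 at 1.20. These differences are large beside the SD of 1.39 of Col1a2 itself, so none matched it closely in both pattern and size. A smaller swing also counts as a difference here, so the measure cannot show whether genes followed Col1a2 with smaller changes. RF01233, LOC100362339, Atp5pb and Cd99l2 had at most 39 counts in a library. Egr1, an immediate early transcription factor, was highest in WT replicate 3, where Col1a2 was low.

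Col3a1, the chain of type III collagen that accompanies type I in compliant tissue, was called in no comparison. It stood at 3250, 2995 and 3020 CPM with LacZ, 2964, 3475 and 2986 with WT, 2945, 2865 and 3017 with K815R, and 3257, 3461 and 3222 in the K815Q-labelled libraries. The K815R libraries were all below those labelled K815Q, by a log2 fold change of -0.17 (SE 0.0614) that was not called (edgeR, Benjamini-Hochberg adjusted p 0.259).

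Type V collagen sits inside type I fibrils and limits their diameter. Its chain Col5a3 was the only member called between K815R and WT. Col5a3 (ENSRNOG00000020525) stood at 71.7, 63.7 and 63.4 CPM with LacZ, 70.2, 82.9 and 75.5 with WT, 58.6, 63.8 and 60.5 with K815R, and 70.0, 64.8 and 69.8 in the K815Q-labelled libraries. The K815R and WT libraries did not overlap. Against WT, Col5a3 was lower in K815R, with a log2 fold change of -0.32 (SE 0.0637, edgeR, Benjamini-Hochberg adjusted p 0.00875), a ratio of 0.801. This call was kept in 5 of 6 leave-one-out fits and was lost without WT replicate 2, the highest, at -0.26 (edgeR, Benjamini-Hochberg adjusted p 0.0693). It was also lost without the 3 libraries of high Col1a2, at -0.29 (edgeR, Benjamini-Hochberg adjusted p 0.0738). WT lay above LacZ by 0.20, which was not called (edgeR, Benjamini-Hochberg adjusted p 0.0647). The other type V chains, Col5a1 and Col5a2, form the common heterotrimer. Col5a1 stood at 634, 580.5 and 606 CPM with LacZ, 579.8, 622 and 636 with WT, 570.5, 622 and 588 with K815R, and 576.5, 613 and 593 in the K815Q-labelled libraries. Col5a2 stood at 503, 477 and 498 CPM with LacZ, 471, 485 and 484 with WT, 459, 467 and 478 with K815R, and 467, 484 and 487 in the K815Q-labelled libraries. Neither was called in any comparison, and the groups lay close together in both. Col5a2 had the smallest spread of any member, an SD of 0.04 in log2 CPM.

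Type XI collagen, a relative of type V known best from cartilage, has Col11a1 as a chain. Col11a1 (ENSRNOG00000023148) stood at 19.3, 14.4 and 18.7 CPM with LacZ, 24.0, 23.5 and 22.2 with WT, 20.7, 19.0 and 20.3 with K815R, and 19.6, 24.4 and 19.8 in the K815Q-labelled libraries. All WT libraries were above all LacZ libraries, and those labelled K815Q were too. Col11a1 rose in WT, with a log2 fold change of 0.41 (SE 0.0987, edgeR, Benjamini-Hochberg adjusted p 0.0170). Leaving out LacZ replicate 2, the lowest library, brought this to 0.28 (edgeR, Benjamini-Hochberg adjusted p 0.112). Leaving out WT replicate 1 or WT replicate 2 also ended the call, at 0.38 and 0.40 (edgeR, Benjamini-Hochberg adjusted p 0.0710 and 0.0762). Without the 3 libraries of high Col1a2 the value was 0.40 and the call was kept (edgeR, Benjamini-Hochberg adjusted p 0.0194). In the K815Q-labelled libraries Col11a1 was 0.28 above LacZ and was not called (edgeR, Benjamini-Hochberg adjusted p 0.0842). Its partner Col11a2 was scarce, at 1.24 to 2.39 CPM over the 12 libraries. It stood at 1.30, 1.83 and 1.43 CPM with LacZ, 1.32, 1.24 and 1.76 with WT, 1.39, 1.46 and 1.36 with K815R, and 1.98, 2.39 and 1.67 in the K815Q-labelled libraries. Col11a2 was called in no comparison.

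The other fibrillar members, Col2a1, Col24a1 and Col27a1, had means of 1.32, 3.76 and 10.7 CPM and were called nowhere. The nearest was Col27a1 in K815R against WT, at -0.34 (edgeR, Benjamini-Hochberg adjusted p 0.0583).

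**Figure D4:**
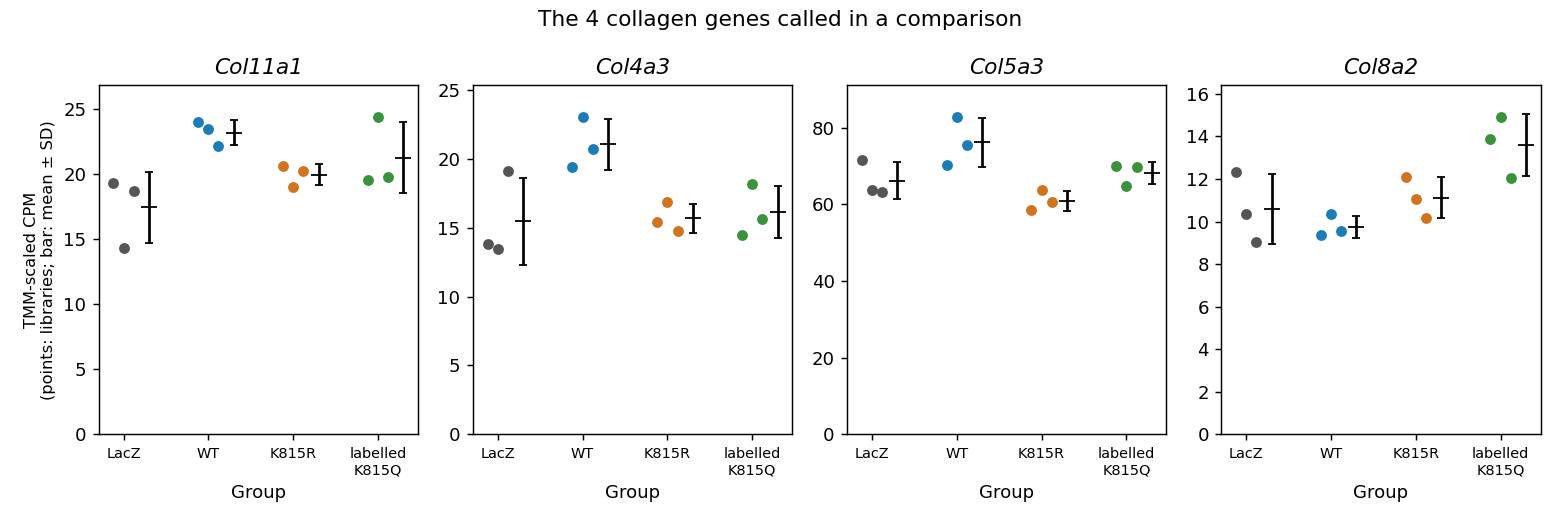
TMM-scaled CPM of the 4 collagen genes called in at least 1 comparison, by library (points) with the group mean and SD (bar, n = 3). The WT points of Col11a1 and Col4a3 lie above the LacZ points, the K815R points of Col5a3 lie below those of WT, and Col8a2 is highest in the K815Q-labelled libraries, the lowest of which, at 12.0, is under the highest LacZ library, at 12.3.

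Collagen IV genes lie in head-to-head pairs that are transcribed away from each other. In RefSeq's GRCr8 assembly the starts of Col4a2 and Col4a1 were 76 bases apart on chromosome 16, those of Col4a4 and Col4a3 were 412 apart on chromosome 9, and those of Col4a6 and Col4a5 were 1414 apart on chromosome X. The counts were made on another build, Rnor_6.0, so these positions are for orientation only. The gap between the starts of Col4a2 and Col4a1, chr16:84885521-84885596, and the 250 bases before the start of Col4a3, chr9:91323740-91323989, are shown because the first lies between the most abundant collagen IV pair and Col4a3 was the collagen IV gene called. Both are the plus strand, 5′ to 3′. Capitals mark GGGCGG or its reverse complement CCGCCC, the core of a GC box, a common promoter element.
Col4a2-Col4a1 gap: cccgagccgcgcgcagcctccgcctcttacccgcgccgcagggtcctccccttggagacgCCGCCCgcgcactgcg
Col4a3 upstream: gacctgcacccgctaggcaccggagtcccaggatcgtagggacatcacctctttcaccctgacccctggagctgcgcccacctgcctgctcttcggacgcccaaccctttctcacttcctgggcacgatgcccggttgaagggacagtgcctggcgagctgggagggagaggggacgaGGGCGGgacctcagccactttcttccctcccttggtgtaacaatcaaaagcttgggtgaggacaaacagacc
Each holds 1 match. Promoter sequences were found for 28 of the 36 members by symbol. On either strand, GGGCGG occurred in the 250 bases upstream of 18 of these 28 (64.3%), against 32.4% of 27457 promoters of the same length. CCAAT occurred in 8 of 28 (28.6%), against 34.3%, and TATAAA in 3 of 28 (10.7%), against 13.1%. Unlike the members, the 27457 promoters were not limited to genes that met the count minimum, so these shares are not like for like. The upstream windows of the paired collagen IV genes share bases where the starts are close, so matches there are counted for both genes, and a match is only a string of letters.

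Col4a1 and Col4a2, the chains found in nearly all basement membranes, were called in no comparison. Col4a1 stood at 3092, 2853 and 3002 CPM with LacZ, 2911, 3179 and 3024 with WT, 3041, 3287 and 3097 with K815R, and 2850, 3169 and 2927 in the K815Q-labelled libraries. Col4a2 stood at 2081, 2035 and 2092 CPM with LacZ, 1997, 2178 and 2136 with WT, 1975, 2205 and 2060 with K815R, and 1913, 2100 and 1991 in the K815Q-labelled libraries. Libraries of WT, K815R and the K815Q-labelled group lay on both sides of the LacZ values in Col4a2, and no group stood clear of LacZ in Col4a1 either.

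Col4a3 (ENSRNOG00000015365), a chain of the specialised network of kidney, lung and inner ear membranes, was the one collagen IV gene called. It stood at 13.8, 13.5 and 19.1 CPM with LacZ, 19.4, 23.1 and 20.7 with WT, 15.4, 16.8 and 14.8 with K815R, and 14.5, 18.2 and 15.6 in the K815Q-labelled libraries. The WT libraries were above all 9 others, though only just above LacZ replicate 3. Col4a3 rose in WT against LacZ by a log2 fold change of 0.44 (SE 0.119, edgeR, Benjamini-Hochberg adjusted p 0.0382). The call was kept in 1 of 6 leave-one-out fits. It was lost without LacZ replicate 1 (0.36), LacZ replicate 2 (0.35), WT replicate 1 (0.49), WT replicate 2 (0.37) or WT replicate 3 (0.45), with adjusted p of 0.0505 to 0.168 (edgeR, Benjamini-Hochberg). A fit of only the 6 libraries compared also lost it, as did leaving out the 3 libraries of high Col1a2 (edgeR, Benjamini-Hochberg adjusted p 0.0805 and 0.0747). K815R lay below WT by -0.42, which was not called (edgeR, Benjamini-Hochberg adjusted p 0.0830).

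Col4a4, which starts next to Col4a3 and joins the same network, did not pass the test. It stood at 237, 215 and 263 CPM with LacZ, 260, 288 and 247 with WT, 240, 262 and 226 with K815R, and 233, 266 and 233 in the K815Q-labelled libraries. The groups overlapped, and WT differed from LacZ by a log2 fold change of 0.15 (SE 0.0803, edgeR, Benjamini-Hochberg adjusted p 0.327). The ratio of Col4a4 to Col4a3 was 11.9 to 13.4 in WT, against 13.8 to 17.1 in the other 9 libraries. Col4a5, the third chain of that network, ranged from 135 to 171 CPM over the 12 libraries and Col4a6 from 6.81 to 9.65. By library, Col4a5 stood at 150, 151 and 171 CPM with LacZ, 155, 155 and 159 with WT, 151, 146 and 155 with K815R, and 135, 151 and 151 in the K815Q-labelled libraries. Col4a6 stood at 9.43, 9.45 and 9.14 CPM with LacZ, 8.22, 8.48 and 9.65 with WT, 7.78, 9.07 and 8.36 with K815R, and 6.81, 7.67 and 8.81 in the K815Q-labelled libraries. Neither Col4a5 nor Col4a6 was called in any comparison, and all 3 Col4a6 values of the K815Q-labelled libraries were below those of LacZ (log2 fold change -0.27, edgeR, Benjamini-Hochberg adjusted p 0.122).

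Type VIII collagen is a short-chain, network-forming collagen of vessel walls and of the membrane under the corneal endothelium. The 250 bases before the start of Col8a2 (RefSeq GRCr8, chr5:143870519-143870768, plus strand, 5′ to 3′) are shown because this gene was called in 2 of the 3 comparisons of the K815Q-labelled libraries, and because it had more GC-box matches, in capitals as above, than any other matched member, at 5.
Col8a2 upstream: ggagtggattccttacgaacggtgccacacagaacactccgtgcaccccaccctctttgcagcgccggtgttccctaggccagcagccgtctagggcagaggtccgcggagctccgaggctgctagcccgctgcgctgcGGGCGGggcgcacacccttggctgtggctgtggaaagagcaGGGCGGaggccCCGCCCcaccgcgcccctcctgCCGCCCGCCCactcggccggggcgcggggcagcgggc
Among the 5 matches, 2 overlap. Col8a2 (ENSRNOG00000010841) stood at 12.3, 10.3 and 9.06 CPM with LacZ, 9.38, 10.3 and 9.55 with WT, 12.1, 11.1 and 10.2 with K815R, and 13.9, 14.9 and 12.0 in the K815Q-labelled libraries. The K815Q-labelled libraries were all above WT, and 1 of them was below the highest LacZ library. Col8a2 was higher in the K815Q-labelled libraries by a log2 fold change of 0.37 (SE 0.108) against LacZ and 0.48 (SE 0.111) against WT (edgeR, Benjamini-Hochberg adjusted p 0.0401 and 0.0334). Neither call was stable to leaving out single libraries. The call against LacZ was lost without LacZ replicate 2 (0.35), LacZ replicate 3 (0.26), or K815Q-labelled replicates 1 (0.35) or 2 (0.29), and also in DESeq2 (adjusted p by Benjamini-Hochberg 0.0682). The call against WT was lost without WT replicate 1 (0.45), 2 (0.53) or 3 (0.47), or without K815Q-labelled replicate 1 (0.47) or 2 (0.41). With only replicate 3 of that group, the one with low Col1a2, the values were 0.19 and 0.31 and were not called (edgeR, Benjamini-Hochberg adjusted p 0.636 and 0.679).

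Col8a1, the partner chain, stood at 81.6, 65.3 and 87.6 CPM with LacZ, 84.9, 83.5 and 71.6 with WT, 65.7, 66.8 and 64.2 with K815R, and 83.4, 87.9 and 70.4 in the K815Q-labelled libraries. The K815R libraries were below all WT libraries and all those labelled K815Q, and overlapped LacZ. The log2 fold changes of K815R were -0.25 against LacZ, -0.29 against WT and -0.30 against the K815Q-labelled libraries, none called (edgeR, Benjamini-Hochberg adjusted p 0.334, 0.27 and 0.343). Without LacZ replicate 2, the lowest LacZ library, Col8a1 became the 1 member called lower in K815R than in LacZ. The ratio of Col8a1 to Col8a2 was 5.43 to 6.31 in K815R and the K815Q-labelled libraries, and 6.31 to 9.67 in LacZ and WT.

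The remaining classes held no call in any of the 6 comparisons. Collagen VI, the beaded filament around cells, had no row with the symbol Col6a3, and its 3 members were Col6a1, Col6a2 and Col6a6. Of these Col6a1 and Col6a2 had means of 428 and 512 CPM, and the log2 fold changes of all 3 lay between -0.20 and 0.11 over the 6 comparisons. The 7 fibril-associated members include Col12a1 and Col14a1, which link fibrils to their surroundings, at means of 240 and 140 CPM. Col16a1, of the same class and with a mean of 98.1 CPM, was lower in every K815R library than in every library labelled K815Q, by a log2 fold change of -0.18 that was not called (edgeR, Benjamini-Hochberg adjusted p 0.172). The multiplexins Col15a1 and Col18a1, basement membrane proteins that carry large sugar chains, had means of 7.24 and 428 CPM. The transmembrane collagens Col13a1 and Col17a1 were at 1.43 and 2.11 CPM. Of the last 3, Col7a1, the anchoring fibril of skin, was at 8.75 CPM and Col26a1 at 1.46 CPM. Col28a1 stood at 0.503, 0.267 and 0.205 CPM with LacZ, 0.659, 0.620 and 0.665 with WT, 0.206, 0.276 and 0.363 with K815R, and 0.208, 0.254 and 0.365 in the K815Q-labelled libraries. Its WT libraries were all above the other 9 libraries, and its log2 fold change of 0.98 against LacZ was not called (edgeR, Benjamini-Hochberg adjusted p 0.126). Col28a1 had 97 counts in all. It had raw counts of 12, 6 and 5 with LacZ, 13, 12 and 14 with WT, and 4 to 8 in the other libraries. The 4 libraries at the count minimum of the member rule were the WT libraries and a single LacZ library. Col28a1 thus became a member through its WT counts, so its higher level in WT is not independent of the rule.

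Collagens varied between libraries slightly more than genes at large. The median SD of log2 CPM was 0.16 over the 36 members and 0.12 over all genes tested. Among genes of at least 100 CPM it was 0.09 for 13 collagens and 0.07 for 1771 genes.

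Enzymes that modify and crosslink collagen chains were followed as partner lists. Over all genes tested, 1.95% were called higher and 3.39% lower in WT against LacZ. In K815R these shares were 0.74% and 1.74%, and in the K815Q-labelled libraries 2.87% and 4.98%. In K815R against WT they were 1.32% and 0.882%. No test was run over a list, so counts of calls are no result about a list as a whole. Without the 3 libraries of high Col1a2, which leaves 1 K815Q-labelled library, every call in these lists named below for that group was lost. In K815R against LacZ, Loxl3 and Fbln1 kept their call in that fit, and the calls of Comp, Fmod, Prelp, Fbln2, Mrc2 and Pdgfa were lost. In K815R against WT, those of P4ha1, P4ha2 and Plod1 were lost. Of 18 genes of modification and folding, 4 fell in WT against LacZ and 0 rose, with a median log2 fold change of -0.03 (0.01 over all genes). These were P3h2 (-0.51), P4ha2 (-0.34), Plod2 (-0.31) and P4ha1 (-0.20), which encode prolyl 3-hydroxylase, prolyl 4-hydroxylase and lysyl hydroxylase enzymes. In K815R against LacZ 0 of the 18 were called by edgeR, with 2, beside 1938 of 14063 genes, at an unadjusted p under 0.05. In the K815Q-labelled libraries P3h2 (-0.45) and P4ha1 (-0.17) fell and Ppib (0.19) rose. Against WT, 4 of the 18 were higher in K815R and 0 lower: P4ha2 (0.34), Plod2 (0.28), P4ha1 (0.22) and Plod1 (0.20). Both comparisons share the WT libraries. In leave-one-out fits of K815R against WT, P4ha2, Plod2, P4ha1 and Plod1 kept their call in 1, 3, 2 and 0 of 6, with values of 0.30 to 0.36 (P4ha2), 0.25 to 0.28 (Plod2), 0.20 to 0.22 (P4ha1) and 0.18 to 0.23 (Plod1) where the call was lost. In WT against LacZ, P4ha2 lost its call without LacZ replicate 1 (-0.35) or 2 (-0.24), or WT replicate 1 (-0.30) or 2 (-0.32). Ppib lost its call without any 1 of the 6 libraries compared (0.15 to 0.22). The chaperone Serpinh1, which is specific to collagen, was called in no comparison.

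P3h2 stood at 20.1, 23.4 and 21.6 CPM with LacZ, 14.1, 16.2 and 15.4 with WT, 18.4, 22.0 and 17.6 with K815R, and 14.8, 17.6 and 15.2 in the K815Q-labelled libraries. Every library of WT and of those labelled K815Q was below every LacZ library. The SE of its log2 fold change was 0.0927 in both comparisons (edgeR, Benjamini-Hochberg adjusted p 0.00161 and 0.00429), and both calls were kept in all 6 leave-one-out fits. Without the 3 libraries of high Col1a2, the call in those labelled K815Q was lost (edgeR, Benjamini-Hochberg adjusted p 0.0916). P4ha1 stood at 216, 227 and 215 CPM with LacZ, 190, 186 and 196 with WT, 225, 226 and 215 with K815R, and 186, 207 and 193 in the K815Q-labelled libraries. Its call in WT was lost without LacZ replicate 2 (-0.18), WT replicate 1 (-0.20) or WT replicate 2 (-0.19), and its call in the K815Q-labelled libraries was lost without LacZ replicate 1 (-0.18), 2 (-0.14) or 3 (-0.18), or K815Q-labelled replicate 1 (-0.13) or 3 (-0.16). Plod2, chosen after its values were seen, kept its call in WT in all 6.

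Of 13 genes of procollagen processing and crosslinking, 4 fell in WT against LacZ: Loxl3 (-0.55), PCOLCE2 (-0.49), Lox (-0.37) and Adamts14 (-0.35). None rose, and the list median was -0.16 (0.01 over all genes). In K815R 1 fell, and in the K815Q-labelled libraries 3 fell (Loxl3, Loxl2 and Tgm2) and 1 rose (Loxl1). In WT, PCOLCE2 and Adamts14 kept their call in 1 of 6 leave-one-out fits each, without LacZ replicate 3 and WT replicate 2 respectively. Tgm2 kept it in 0 of 6, Loxl2 lost it without LacZ replicate 3 (-0.25) or K815Q-labelled replicate 1 (-0.24), and Loxl1 without LacZ replicate 2 (0.23) or K815Q-labelled replicate 1 (0.26). Loxl3, a lysyl oxidase family member, was the only gene of the collagen partner lists called lower in all 3 groups. It stood at 24.1, 30.0 and 22.8 CPM with LacZ, 16.8, 18.4 and 17.4 with WT, 16.7, 19.3 and 17.6 with K815R, and 18.9, 18.4 and 19.9 in the K815Q-labelled libraries. All 9 libraries of the other groups were below the 3 with LacZ. The log2 fold change was -0.55 in WT, -0.51 in K815R and -0.42 in the K815Q-labelled libraries (SE 0.0880 to 0.0892, edgeR, Benjamini-Hochberg adjusted p 5.24e-04, 0.00168 and 0.00494). The first and second of these held in all 6 leave-one-out fits, while the third was lost without LacZ replicate 2, at -0.30, and without the 3 libraries of high Col1a2, at -0.36 (edgeR, Benjamini-Hochberg adjusted p 0.0502 and 0.231).

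Lox, the founding lysyl oxidase, separated WT from K815R and was chosen for description after its values were seen. It stood at 152, 165 and 158 CPM with LacZ, 129, 114 and 125 with WT, 178, 171 and 172 with K815R, and 144, 170 and 133 in the K815Q-labelled libraries. The WT libraries were below all others and the K815R libraries were above all others. In K815R, Lox lay above WT by 0.50 on the log2 scale (SE 0.0697, edgeR, Benjamini-Hochberg adjusted p 6.13e-04) and was lower in WT than in LacZ, at -0.37 (SE 0.0697, edgeR, Benjamini-Hochberg adjusted p 0.00309). Both calls held in all 6 leave-one-out fits. K815R and LacZ differed by 0.13, which was not called (edgeR, Benjamini-Hochberg adjusted p 0.414).

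**Figure D5:**
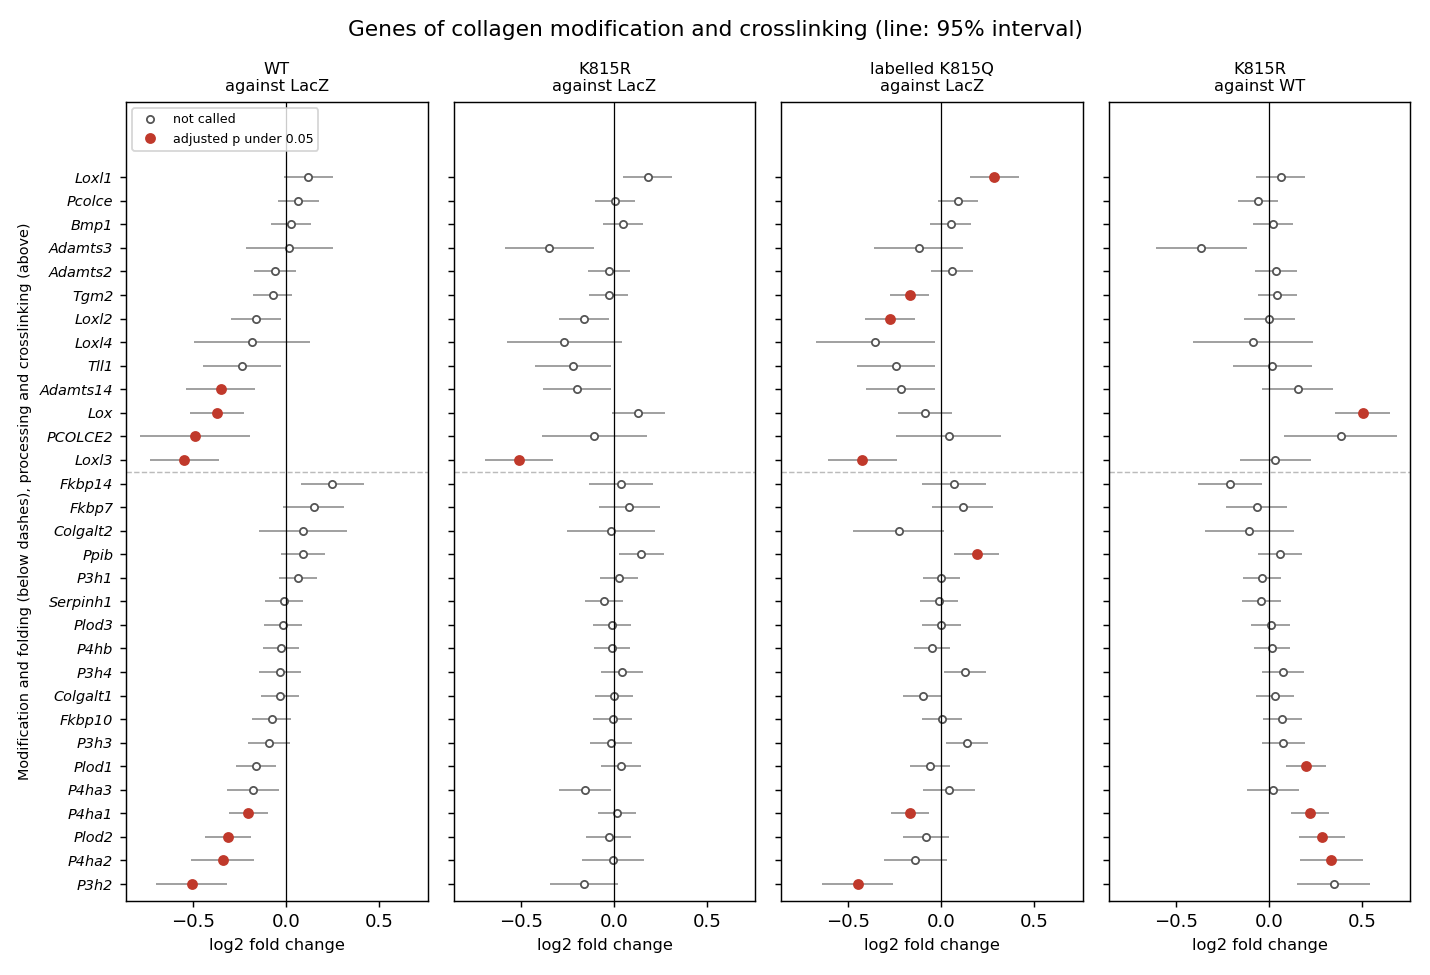
Log2 fold changes (x axis, line: 95% interval) of 18 genes of collagen modification and folding, below the dashed line, and 13 of processing and crosslinking, above it, in 4 comparisons; filled red points have an adjusted p under 0.05. The called genes of WT against LacZ lie left of 0 and those of K815R against WT right of 0, and Loxl3 is left of 0 in all 3 panels against LacZ.

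Of 9 genes of procollagen export, only Sec23a, a coat protein of vesicles that leave the endoplasmic reticulum, was called, lower in the K815Q-labelled libraries by -0.23 (edgeR, Benjamini-Hochberg adjusted p 0.0489). It stood at 46.1, 46.2 and 49.9 CPM in LacZ and 38.2, 44.3 and 38.4 in those libraries, and its call was kept only without K815Q-labelled replicate 2, with -0.19 to -0.25 in the other 5 leave-one-out fits. Of 16 fibril assembly partners, Postn rose in WT, and Postn and Mfap2 (0.54) rose in the K815Q-labelled libraries. In K815R, Comp (0.64) and Fbln1 (0.30) rose, and Fmod (-0.37), Prelp (-0.31) and Fbln2 (-0.20) fell. Leaving out LacZ replicate 1 alone ended all 5 of these K815R calls (0.65, 0.31, -0.36, -0.28 and -0.15 in the same order). Over the 6 leave-one-out fits, Comp kept its call in 1, Fbln1 in 0, Fmod in 2, Prelp in 2 and Fbln2 in 1, and Mfap2 kept its call in the K815Q-labelled libraries in 1. Postn, the matrix protein periostin, rose in WT (0.35, edgeR, Benjamini-Hochberg adjusted p 0.00104) and in the K815Q-labelled libraries (0.20, edgeR, Benjamini-Hochberg adjusted p 0.0421). Postn stood at 328, 286 and 326 CPM with LacZ, 388, 437 and 373 with WT, 319, 294 and 318 with K815R, and 366, 367 and 350 in the K815Q-labelled libraries. The WT libraries were the highest, and K815R overlapped LacZ. The call of Postn in WT held in all 6 leave-one-out fits, and that in the K815Q-labelled libraries only without LacZ replicate 1, with 0.14 to 0.23 in the other 5.

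Of 10 collagen receptors and uptake genes, 1 was called lower than in LacZ in each group and 0 higher. Mrc2, an endocytic receptor for collagen, was that gene in WT (-0.33) and K815R (-0.23), and Adgrg6 was in the K815Q-labelled libraries (-0.45). Mrc2 stood at 86.2, 80.0 and 78.9 CPM with LacZ, 60.2, 68.7 and 65.9 with WT, 70.3, 70.9 and 67.9 with K815R, and 83.6, 80.1 and 76.1 in the K815Q-labelled libraries. The 6 WT and K815R libraries were below all 6 others. The call of Mrc2 in WT (edgeR, Benjamini-Hochberg adjusted p 8.94e-04) held in all 6 leave-one-out fits, and that in K815R (edgeR, Benjamini-Hochberg adjusted p 0.0287) was lost without LacZ replicate 1 (-0.19) or 2 (-0.24), or K815R replicate 1 (-0.23) or 3 (-0.21).

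Of 25 TGF-beta pathway and fibrosis regulators, 0 were called higher and 2 lower in WT against LacZ, and 1 higher and 0 lower in K815R. In the K815Q-labelled libraries 1 was called lower and 2 rose, Pdgfa and Pdgfrb (0.21). The call of Pdgfrb was kept only without LacZ replicate 1, with 0.14 to 0.24 in the other 5 leave-one-out fits. Pdgfa, a growth factor for fibroblasts, rose in K815R (0.24) and in the K815Q-labelled libraries (0.23), with its call kept in 1 and in 3 of 6 leave-one-out fits (edgeR, Benjamini-Hochberg adjusted p 0.0295 and 0.0229). It stood at 40.4, 41.8 and 42.9 CPM with LacZ, 45.9, 47.9 and 47.2 with WT, 52.0, 45.4 and 50.8 with K815R, and 51.6, 48.1 and 46.9 in the K815Q-labelled libraries. The 9 libraries of the other groups were all above LacZ. In K815R the call was kept only without K815R replicate 2 (0.21 to 0.27 in the other 5 fits), and in the K815Q-labelled libraries it was lost without LacZ replicate 1 (0.21) or 2 (0.23), or K815Q-labelled replicate 1 (0.19).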

How the data were processed

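Poly(A) RNA of 12 libraries was profiled, and the authors deposited 1 table of raw read counts per gene. The library is labelled paired-end and strand-specific but was sequenced as single reads, per the labels' protocols. Per the submitters' processing notes, Trimmomatic 0.39, HISAT2 2.2.1, HTSeq 0.6.1, edgeR and the build Rnor_6.0 were used. The annotation and strand setting are not given in the sources used here, so overlapping and antisense genes are uncertain. The table's last 5 rows are counters that name no gene and stayed out of library sizes and tests. They hold reads in no feature (11.7% to 12.9%), with several alignments (25.6% to 26.9%), not aligned (2.69% to 3.06%) or ambiguous (0.461% to 0.50%), so chains with near-identical copies may lack reads.

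Groups and replicate numbers came from the sample titles. Within groups, chi-square per degree of freedom over genes was 4.78 to 9.29, so no library was a copy of another of its group. Libraries of different groups were not compared in this way. From the counts, all else was computed with R 4.3.3 and edgeR 4.0.16: TMM scaling, filterByExpr, a robust quasi-likelihood test in 1 model of 4 group means, and Benjamini-Hochberg adjustment over 14063 genes for each comparison, without adjustment over comparisons. The procedure was tested on simulated data. DESeq2 1.42.0, other scaling and filters, a replicate term, fits of 6 libraries and leaving out each library were alternatives.

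Values in every library are given for Col1a2, members called in any comparison, the 3 members with the highest mean and chain partners of these. From each partner list, genes called in the same direction against LacZ in at least 2 groups are given, and otherwise the 2 called genes with the lowest p. Other genes were named after their values were seen. Likeness to Col1a2 was ranked among genes with at least 0.5 times its SD of log2 CPM. Members and lists were chosen with earlier results of these data known. Promoter sequences are from RefSeq, GRCr8. Some genes of the partner and marker lists are not reported here.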

Additional observations from a re-analysis of the deposited data

How the results depend on the processing

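RLE scaling and a filter of 10 counts in every library changed none of the 7 counts of called collagens. Without a filter, calls numbered 4 in WT against LacZ, 2 in the K815Q-labelled libraries against LacZ, 3 in K815R against WT, 2 in the K815Q-labelled libraries against WT and 5 for any difference. DESeq2 called 1 member, Col1a1, in K815R against LacZ, 2 in the K815Q-labelled libraries against WT, and 4 for any difference. Fits of only the 6 libraries compared gave 1 call in WT against LacZ, 0 in the K815Q-labelled libraries against LacZ, 3 in K815R against WT and 2 in the K815Q-labelled libraries against WT.

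Without the 3 libraries of more than 1000 Col1a2 counts, a choice made after seeing the data in which Col1a2 itself was not counted, calls numbered 1 in WT against LacZ, 0 in the K815Q-labelled libraries against LacZ, 0 in K815R against WT, 0 in the K815Q-labelled libraries against WT and 0 for any difference. That alternative leaves 1 library labelled K815Q, which is assumed to vary like the other groups.

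Leaving out 1 library at a time gave 0 to 2 calls in WT against LacZ, 0 to 1 in K815R against LacZ, 0 to 2 in the K815Q-labelled libraries against LacZ, 0 to 2 in K815R against WT, 0 to 1 in the K815Q-labelled libraries against WT, 0 in K815R against the K815Q-labelled libraries, and 1 to 3 for any difference. The log2 fold change of Col1a2 in WT against LacZ ranged from -0.19 to 0.18 when 1 library was left out and changed sign at 0.18 without LacZ replicate 2 and 0.06 without WT replicate 2. The cause of these changes was not tested.

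The replicate numbers showed no clear pairing of the libraries. Of 18 same-numbered pairs, 1 had deviations from group means correlated above 0.1 (range -0.13 to 0.12). By mean correlation with libraries of the other groups, 4 of 12 libraries were closest to their own replicate number. Pairs among WT, K815R and the K815Q-labelled group ran from 0.00 to 0.12, and pairs with LacZ from -0.13 to 0.03. A replicate block raised the calls over all genes in every test, as from 151 to 232 in the K815Q-labelled libraries against WT. A weak pairing is thus not settled by these values. With the replicate number as a block, 2 members, Col4a3 and Col5a3, were called in K815R against WT. For members near 1 CPM or less, counts limit what difference could be detected.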
